A study of Mus musculus with 10 samples.

Results

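The 10 genes described here encode 3 Notch receptors (Notch1, Notch2 and Notch3), 3 of their ligands (Jag1, Dll1 and Dll4) and 4 transcriptional targets of the HES and HEY family (Hes1, Hey1, Hey2 and Heyl). They were chosen by gene symbol as parts of one pathway, out of 54446 gene IDs counted in every library. Each symbol matched 1 ID, and all 10 passed the filter on low counts, as did 15181 genes in all. RNA came from primary aortic smooth muscle cells at passage 2, freed with collagenase, of 5 WWv mice, which carry the Kit alleles W and Wv, and of 5 wild type mice (WT), with 5 libraries per genotype. Kit encodes the cell surface kinase that binds stem cell factor, and the comparison asked which transcripts differ when its signal is impaired. Both alleles are germline changes, so every cell of the animal carries them and no promoter or Cre confines them to smooth muscle. The labels give no strain, sex, age or treatment and do not state that each library came from its own mouse, so the p-values measure the spread between these libraries.

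Notch receptors are single-pass membrane proteins that bind ligands on a neighbouring cell. Ligand binding lets ADAM proteases and then gamma-secretase cut the receptor, and the freed intracellular domain joins the DNA-binding protein RBPJ and a Mastermind coactivator to switch on HES and HEY genes, whose products are repressors. In the arterial wall Jag1 on endothelium and on smooth muscle signals to Notch2 and Notch3 in smooth muscle and promotes its mature state. Notch1, Notch4 and Dll4 are best known from endothelium.

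The windows before the RefSeq start sites (GRCm38.p6) of Hey2, the RBPJ-driven target that arterial smooth muscle is known for, and of Notch3, the mural cell receptor, are shown because they were the windows among the 10 genes that held a match to a sequence bound by RBPJ or by HES proteins. Capitals mark GTGGGAA, a core sequence that RBPJ binds, or CACGAG, an N box variant that HES proteins bind, on either strand. The Hey2 window is chr10:30842781-30843033 on the minus strand, with 3 bases past the start that complete the last match, and the Notch3 window is chr17:32166891-32167140, also on the minus strand.
Hey2: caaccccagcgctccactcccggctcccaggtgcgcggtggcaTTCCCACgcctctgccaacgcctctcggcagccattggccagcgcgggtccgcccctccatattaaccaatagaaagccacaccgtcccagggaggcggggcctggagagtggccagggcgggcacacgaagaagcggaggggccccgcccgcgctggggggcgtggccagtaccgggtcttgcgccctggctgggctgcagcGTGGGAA
Notch3: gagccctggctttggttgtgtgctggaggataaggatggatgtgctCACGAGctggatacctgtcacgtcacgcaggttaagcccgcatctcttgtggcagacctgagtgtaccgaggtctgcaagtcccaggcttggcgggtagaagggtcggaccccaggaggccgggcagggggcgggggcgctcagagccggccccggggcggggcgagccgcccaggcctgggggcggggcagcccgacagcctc
The Hey2 window held 2 matches to GTGGGAA, of which the first is on the opposite strand and the second crosses the start. Of 32851 RefSeq promoter windows of 300 bases, 6.38% held this sequence at least once and 0.256% held 2 or more copies. CACGAG was present once in the Notch3 window and in 6.47% of all windows, and CACGTG, an E box searched as well, was in 7.15% of all windows. Windows were available for 7 of the 10 genes (8 windows), and those of Notch1, Notch2, Jag1, Dll1 and Dll4 held none of these 3 sequences. These matches describe letters in a window and are not binding sites.

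Library totals ranged from 42040255 to 53863661 counts. Kit, the gene that carries the alleles, stood between 0.929 and 3.01 CPM (counts relative to the library total, scaled with TMM factors) in WWv. In WT it stood between 3.19 and 4.92 CPM, so that every WWv library was below every WT library. Counts per gene do not show the alleles, so the level of Kit does not check the labels. In WWv 4274 of 15181 tested genes (28.2%) passed the threshold, 1940 higher (12.8%) and 2334 lower (15.4%), which makes 45.4% of the calls higher. When libraries were scaled by their totals alone, without TMM, 983 were higher and 3599 lower (30.2% called), which makes 21.5% of the calls higher. The threshold throughout is a Benjamini-Hochberg adjusted p under 0.05 over all tested genes in the two-sided quasi-likelihood test of edgeR. On the first principal component (52.5% of the variance) WT 2 lay at 20.2, among the WWv libraries (11.5 to 33.4), whereas the other WT libraries lay between −51.1 and −29.1. On the second (17.3%) WT 2 lay at −42.9, below all other libraries of both groups (−20.2 to 23.1). Without WT 2 the share of genes called was 46.2%, and without WT 2 and WWv 1 together it was 46.4%. The log2 fold change of each of the 10 genes is therefore also given without WT 2. Smooth muscle markers were abundant in both groups (8 tested, 6 higher and 2 not past the threshold, 75.0% called against 28.2% of all genes). Their summed level was 17220 to 20750 CPM in WWv and 10140 to 13450 CPM in WT.

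Of the 10 genes, 2 were higher in WWv (Jag1 and Hes1), 2 were lower (Dll1 and Dll4), and 6 did not pass the threshold. That is 40.0% called, against the background of 28.2%, or 12.8% higher and 15.4% lower. The median log2 fold change was −0.12 over the 10 genes and −0.01 over all genes tested. For none of the 10 did all WWv libraries lie on one side of all WT libraries, a separation seen in 15.9% of all tested genes. At an unadjusted p under 0.05 there were 5 genes, the fifth being Notch3. Without WT 2 there were 6 calls, 3 higher and 3 lower, with Notch1 and Notch3 joining the other 4, against a background of 46.2%. The same 6 were called without WT 2 and WWv 1 together, against 46.4%. When scaled by totals alone 0 were higher and 3 lower (Notch3, Dll1 and Dll4), against 30.2% of all genes called. The calls of Jag1 and Hes1 stood close to the threshold (edgeR adjusted p = 0.0454 and 0.0463). The number of higher calls was 0 when any one of WWv 2 to WWv 5, or any one of WT 1, WT 3 and WT 5, was left out, and 1 without WT 4. In these 8 fits the share of all tested genes called higher was smaller too, 8.34 to 9.86% against 12.8% with all libraries. The number of lower calls was 1 without WWv 3, WT 3, WT 4 or WT 5, where 11.3 to 11.7% of all genes were called lower, against 15.4% with all libraries. The call that remained was that of Dll1, which was kept whichever single library was left out.

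**Figure D1:**
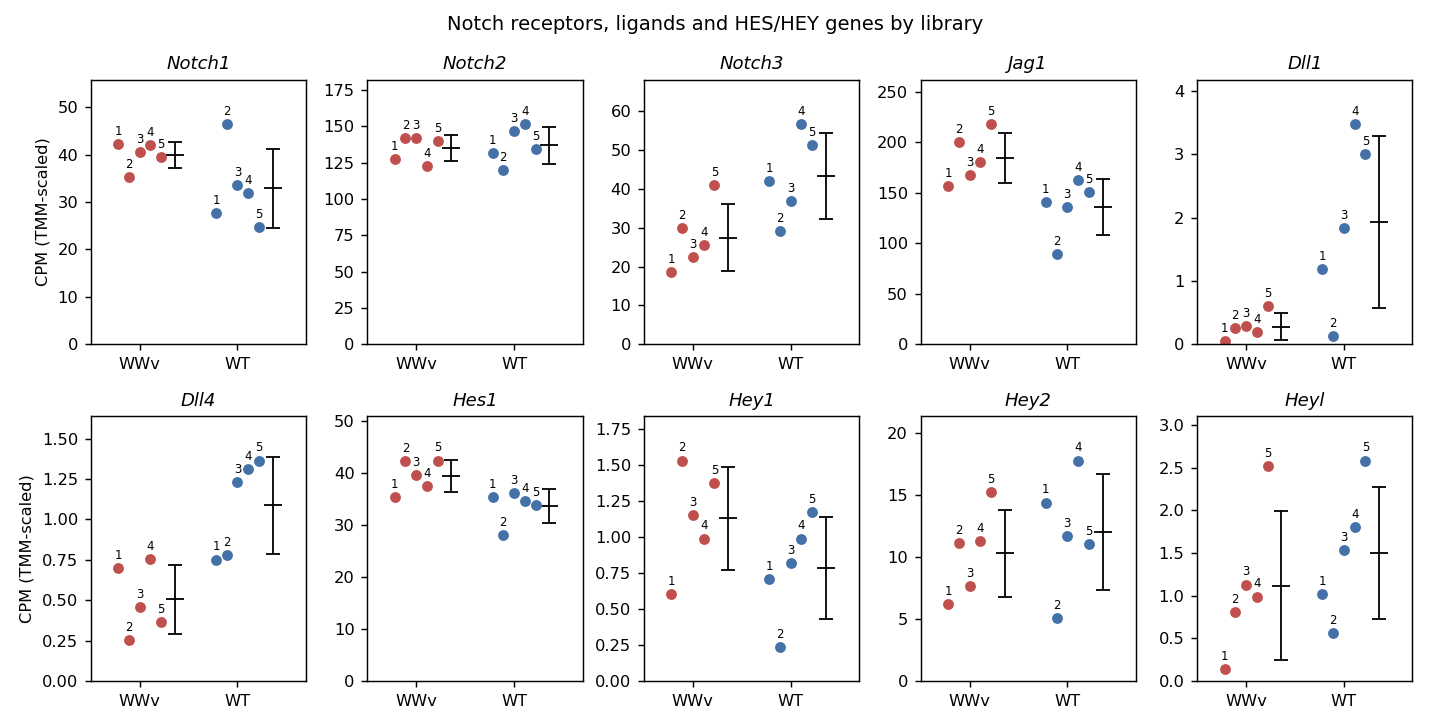
Level of each of the 10 genes in CPM scaled with TMM factors (vertical axis from 0) in the 5 WWv and the 5 WT libraries, with replicate numbers beside the points; the bar beside each group is the mean ± SD. The groups overlap in every panel, and WT 2 is the lowest WT library in 8 of the 10.

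Among the receptors, Notch2 was the most abundant per exon length, at 12.5 ± 0.837 CPM per kb in WWv and 12.7 ± 1.17 in WT (SD, n = 5 each). Notch2 (ENSMUSG00000027878.11, chromosome 3, 98013527 to 98150361, GRCm38) stood at 128, 142, 142, 123 and 139.7 CPM in WWv replicates 1 to 5, against 132, 120.3, 147, 152 and 134 CPM in WT replicates 1 to 5. The WWv range lay inside the WT range. The log2 fold change was −0.02 ± 0.07 (SE, edgeR adjusted p = 0.836), and its sign turned without WWv 4 (0.0041), WT 3 (0.0038) or WT 4 (0.016). Without WT 2 it was −0.064. Of the 10782 exon bases of Notch2 541 overlap a gene on the same strand.

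Notch3 (ENSMUSG00000038146.7, chromosome 17, 32120820 to 32166852) encodes the receptor that marks arterial smooth muscle and pericytes and is mutated in the human small vessel disease CADASIL. It stood at 18.5, 29.9, 22.5, 25.5 and 41.1 CPM in WWv replicates 1 to 5, against 42.03, 29.2, 36.9, 56.8 and 51.4 CPM in WT. All 5 WWv libraries were below the WT mean and 3 were below every WT library. WWv 2 and WWv 5 lay inside the WT range, and WT 2 lay inside the WWv range. The log2 fold change of −0.65 ± 0.22 just missed the threshold (edgeR adjusted p = 0.0504). It passed without WT 2 (−0.76, adjusted p = 0.0112) and without WWv 5 (−0.85, adjusted p = 0.0139), and under 10 of 19 alternatives in all, always with the same sign. Of the 8089 exon bases of Notch3 488 overlap a gene on the opposite strand, which had 0 to 4 counts per library in WWv and 4 to 19 in WT. Reads there cannot be assigned without knowing the strand setting.

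Notch1 (ENSMUSG00000026923.15, chromosome 2, 26457903 to 26516663) stood at 42.2, 35.3, 40.6, 41.9 and 39.4 CPM in WWv, against 27.7, 46.5, 33.5, 31.8 and 24.8 CPM in WT. WT 2 held the highest level of all 10 libraries, and the other 4 WT libraries lay below every WWv library. The log2 fold change was 0.28 ± 0.14 (edgeR adjusted p = 0.165), and without WT 2 it was 0.44 (adjusted p = 0.0023). The summed level of 12 endothelial markers was likewise highest in WT 2 and lower in the other 4 WT libraries than in every WWv library. It was 307, 202, 258, 334 and 208 CPM in WWv replicates 1 to 5, against 132, 460.1, 158, 123 and 128 CPM in WT replicates 1 to 5. All 12 were detected, none at 0. Ptprb, an endothelial receptor phosphatase, was higher, Erg, an endothelial ETS factor, was lower and 10 did not pass (16.7% called, background 28.2%). The part of these markers in the level of Notch1 was not tested. Of the 14232 exon bases of Notch1 1389 overlap genes on the opposite strand, whose reads cannot be told apart without the strand setting. In bulk RNA, fewer cells of a type and less RNA per cell cannot be told apart.

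The share of each receptor in the summed level per exon length of the 3 does not depend on how libraries are scaled. Notch3 made up 13.4, 19.1, 14.7, 18 and 24.4% of it in WWv replicates 1 to 5, against 26.8, 20, 22.2, 30.1 and 30.9% in WT. WWv 5 exceeded WT 2 and WT 3, and the other WWv libraries lay below every WT library. Notch2 averaged 67.0 ± 3.23% in WWv and 62.4 ± 2.43% in WT, and Notch1 15.1 ± 2.04% in WWv and 11.6 ± 3.82% in WT (SD, n = 5 each). These shares are descriptions, with no test.

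Jag1 (ENSMUSG00000027276.7, chromosome 2, 137081456 to 137116644) encodes the ligand that smooth muscle itself presents, and was the most abundant of the 10 genes per exon length. It stood at 156, 199.7, 167, 179.9 and 218 CPM in WWv replicates 1 to 5, against 140.4, 89.6, 136, 163 and 151 CPM in WT. Of the WWv libraries 4 were above every WT library, WWv 1 lay inside the WT range, and WT 2 was the lowest of all. The mean was 184 ± 24.9 CPM in WWv and 136 ± 27.9 CPM in WT (n = 5 each), a 1.36-fold difference (log2 fold change 0.44 ± 0.15, edgeR adjusted p = 0.0454). The call was lost when any of 7 libraries was left out: WWv 2 (adjusted p = 0.0942), WWv 3 (0.0598), WWv 4 (0.0748), WWv 5 (0.094), WT 1 (0.0775), WT 3 (0.0854) or WT 5 (0.0571), with log2 fold changes between 0.37 and 0.48. It was also lost with library size only (0.36, adjusted p = 0.0725) and with upper quartile scaling (0.42, adjusted p = 0.0525). Without WT 2, the lowest library, the change was 0.32 and passed (adjusted p = 0.0166).

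Dll1 (ENSMUSG00000014773.13, chromosome 17, 15367354 to 15376872), a Delta type ligand that arteries use during growth and after injury, was scarce. It had 2, 11, 12, 9 and 32 counts in WWv replicates 1 to 5, against 57, 6, 94, 183 and 128 counts in WT. In CPM these were 0.0450, 0.255, 0.289, 0.194 and 0.611 in WWv, against 1.19, 0.129, 1.83, 3.49 and 3.01 in WT. Every WWv library was below 4 of the WT libraries, and WT 2 lay inside the WWv range. The fitted difference was 6.75-fold lower in WWv (log2 fold change −2.75 ± 0.73, edgeR adjusted p = 0.0176), and −3.05 without WT 2 (adjusted p = 0.00055). The call held in every edgeR fit that tested the gene and with DESeq2, and was lost with limma-voom (−2.49, adjusted p = 0.115). Of its 4219 exon bases 867 overlap A930024N18Rik on the opposite strand, which had 0 to 1 counts per library in WWv and 0 to 14 in WT, so reads there cannot be assigned without knowing the strand setting.

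Dll4 (ENSMUSG00000027314.6, chromosome 2, 119325784 to 119335962), the ligand of arterial endothelium and sprouting tip cells, was also scarce, with 11 to 69 counts per library. It stood at 0.697, 0.255, 0.457, 0.754 and 0.363 CPM in WWv, against 0.751, 0.776, 1.23, 1.31 and 1.36 CPM in WT. WWv 4 lay just above WT 1, and the other 4 WWv libraries lay below every WT library. The fitted level was 2.15-fold lower in WWv (log2 fold change −1.10 ± 0.31, edgeR adjusted p = 0.0222). The call was lost without WWv 3 (adjusted p = 0.0523), WT 3 (0.0526), WT 4 (0.0532) or WT 5 (0.0521), with log2 fold changes of −1.07, −1.05, −1.02 and −1.01. Without WT 2 the change was −1.20 (adjusted p = 0.0086). The summed endothelial markers given above were higher in all 5 WWv libraries than in WT 1, WT 3, WT 4 and WT 5. Single markers did not all follow the sum, and the median log2 fold change of the 12 was 0.03. Ptprb averaged 79.4 CPM in WWv and 29.5 CPM in WT, whereas Erg averaged 8.27 CPM in WWv and 22.6 CPM in WT. The part of endothelial transcripts in the level of Dll4 was not tested. Of the 3852 exon bases of Dll4 214 overlap a gene on the opposite strand.

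Jag1 made up 99.3, 99.6, 99.4, 99.2 and 99.4% of the summed level per exon length of the 3 ligands in WWv, against 98.1, 98.5, 96.9, 96.0 and 96.0% in WT. The ranges did not overlap, so the ligand transcripts were nearly all Jag1 in both groups and more so in WWv. This too is a description of the 3 levels already given.

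**Figure D2:**
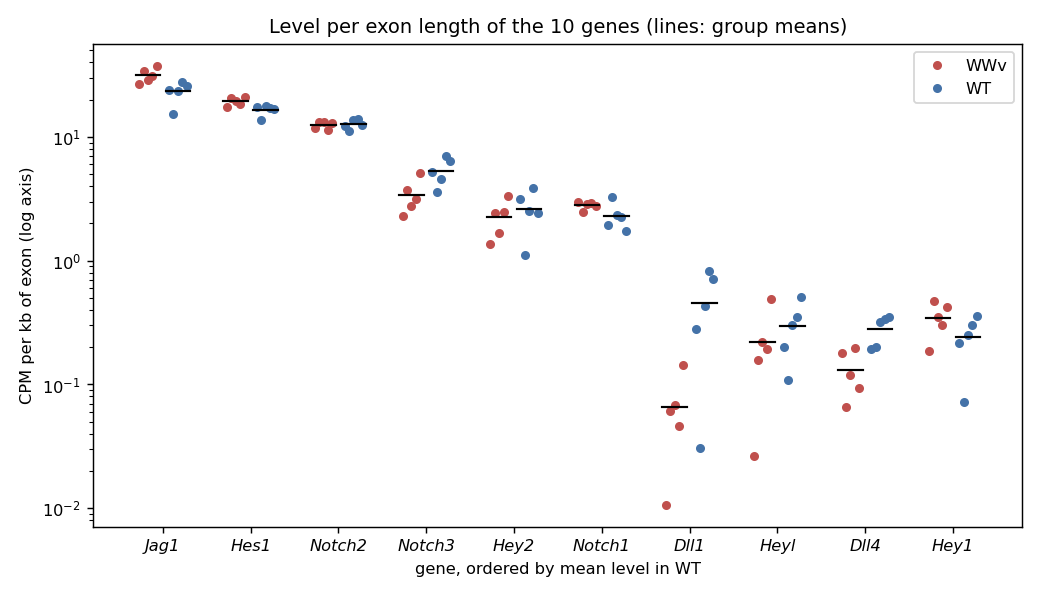
Level of each of the 10 genes per exon length (CPM per kb, log axis) in WWv and WT libraries, genes ordered by their mean in WT; lines are group means. Jag1, Hes1 and Notch2 lie above 10 CPM per kb in each library, and Dll1, Dll4, Hey1 and Heyl below 1.

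Hes1 (ENSMUSG00000022528.8, chromosome 16, 30064384 to 30067796) encodes the repressor that many Notch signals switch on, and was the most abundant target. It stood at 35.4, 42.3, 39.6, 37.5 and 42.4 CPM in WWv, against 35.3, 28.1, 36.1, 34.7 and 33.9 CPM in WT. All WWv libraries but WWv 1 were above every WT library. The mean was 39.5 ± 3.04 CPM in WWv and 33.6 ± 3.22 CPM in WT (n = 5 each), a 1.17-fold difference (log2 fold change 0.23 ± 0.08, edgeR adjusted p = 0.0463). The call was lost without WWv 2 (adjusted p = 0.102), WWv 3 (0.0818), WWv 4 (0.0597), WWv 5 (0.0929), WT 1 (0.0631), WT 3 (0.0539), WT 4 (0.0709) or WT 5 (0.079), with log2 fold changes between 0.20 and 0.26. With library size only the change was 0.15 (adjusted p = 0.135) and with upper quartile scaling 0.21 (adjusted p = 0.0611). Without WT 2, the lowest library, it was 0.17 and passed (adjusted p = 0.0311).

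The 3 HEY genes did not pass the threshold under any of the 19 alternatives. Hey2 (ENSMUSG00000019789.9, chromosome 10, 30832359 to 30842801), whose product works in arterial identity and smooth muscle differentiation, stood at 6.23, 11.1, 7.67, 11.3 and 15.2 CPM in WWv, against 14.4, 5.07, 11.7, 17.8 and 11.1 CPM in WT. The groups overlapped over most of their ranges (log2 fold change −0.22 ± 0.31, edgeR adjusted p = 0.625), with values from −0.41 without WT 2 to −0.03 without WT 4. Hey1 (ENSMUSG00000040289.8, chromosome 3, 8663359 to 8667256), a close relative that is also made in endothelium, stood at 0.607, 1.53, 1.155, 0.990 and 1.375 CPM in WWv, against 0.7095, 0.237, 0.819, 0.990 and 1.18 CPM in WT. Of the WWv libraries 4 were above the WT mean (0.53 ± 0.36, adjusted p = 0.295), and without WT 2 the change was 0.30.

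Heyl (ENSMUSG00000032744.4, chromosome 4, 123233556 to 123249875), the HEY gene that responds to Notch3 in vessels, stood at 0.135, 0.813, 1.13, 0.990 and 2.52 CPM in WWv, against 1.02, 0.561, 1.54, 1.81 and 2.59 CPM in WT. It spanned 18.7-fold among WWv libraries, the widest range of the 10 genes there, and 4.61-fold among WT libraries. The log2 fold change of −0.41 ± 0.57 (edgeR adjusted p = 0.61) was −0.13 without WWv 1 or without WT 5, −0.97 without WWv 5 and −0.61 without WT 2.

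**Figure D3:**
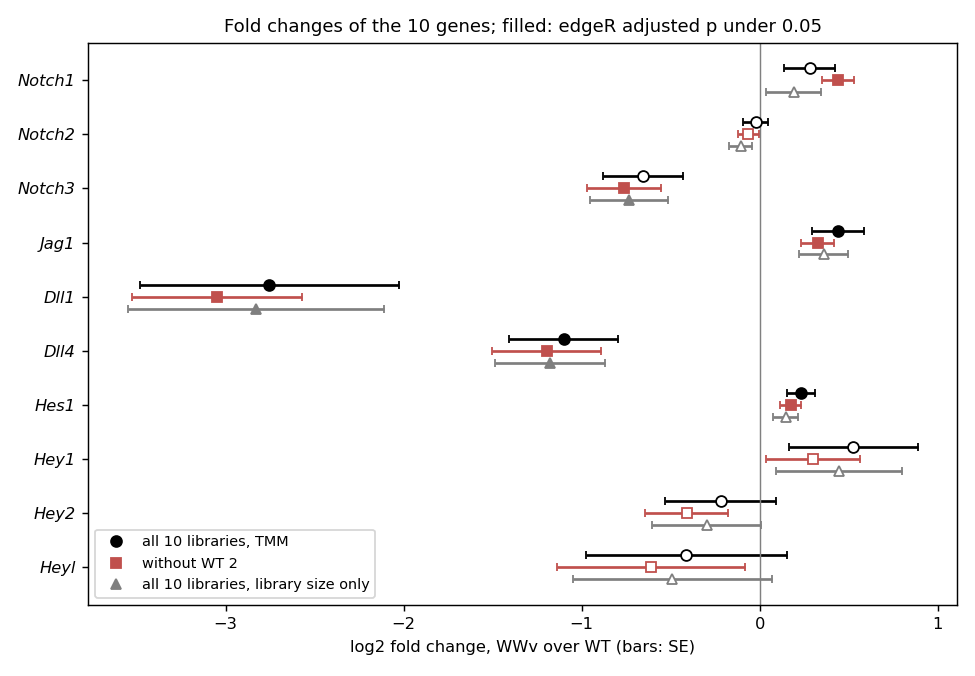
Log2 fold change of WWv over WT with its standard error for the 10 genes, with all libraries and TMM (circles), without WT 2 (squares) and with library size only (triangles); filled symbols have an edgeR adjusted p under 0.05. Jag1 and Hes1 are filled with TMM and open with library size only, and Notch1 is filled without WT 2 alone.

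Per exon length the 10 genes fell into the same broad order in both groups. In WWv the means were 31.6 CPM per kb for Jag1, 19.4 for Hes1 and 12.5 for Notch2, against 23.3, 16.5 and 12.7 CPM per kb for the same genes in WT. Jag1 exceeded Hes1, Hes1 exceeded Notch2 and Notch2 exceeded Notch3 in all 5 libraries of each group. Next came Notch3, Notch1 and Hey2 in WWv (3.40, 2.80 and 2.24 CPM per kb) and Notch3, Hey2 and Notch1 in WT (5.35, 2.61 and 2.31 CPM per kb), with overlapping ranges between neighbours. The lowest 4 were Hey1, Heyl, Dll4 and Dll1 in WWv, in that order from 0.347 to 0.0661 CPM per kb, with overlapping ranges between neighbours. In WT Dll1 led the same 4 at 0.457 CPM per kb and Hey1 was last at 0.241, again with overlapping ranges.

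The spread among libraries of a group was shared by several of the 10 genes. WWv 1 was the lowest WWv library for 7 of them (Notch3, Jag1, Dll1, Hes1, Hey1, Hey2 and Heyl), and WT 2 was the lowest WT library for the same 7 and for Notch2. WWv 5 was the highest WWv library for 6 (Notch3, Jag1, Dll1, Hes1, Hey2 and Heyl), and WT 4 the highest WT library for 5 (Notch2, Notch3, Jag1, Dll1 and Hey2). For Notch1 the same libraries stood at the other end, with WWv 1 the highest of WWv and WT 2 the highest of WT. How often each library was lowest or highest over all tested genes was not counted. WT 2 also stood apart from the other WT libraries on the first principal component, which covers all tested genes. Of 13 cell cycle markers 8 were higher in WWv, none was lower and 5 did not pass the threshold (61.5% called, against 28.2% of all genes). The groups did not overlap for Cdc6, Ccne1 and Ccne2 and overlapped for the rest of the list, where 15.9% of all tested genes had no overlap. The highest sum of the 13 markers in WT was that of WT 2, 842 CPM, above the 718 to 838 CPM of WWv and the 508 to 568 CPM of the other 4 WT libraries. WWv 1 had the lowest such sum of WWv. The part of cell cycle or endothelial transcripts in these levels was not tested.

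**Figure D4:**
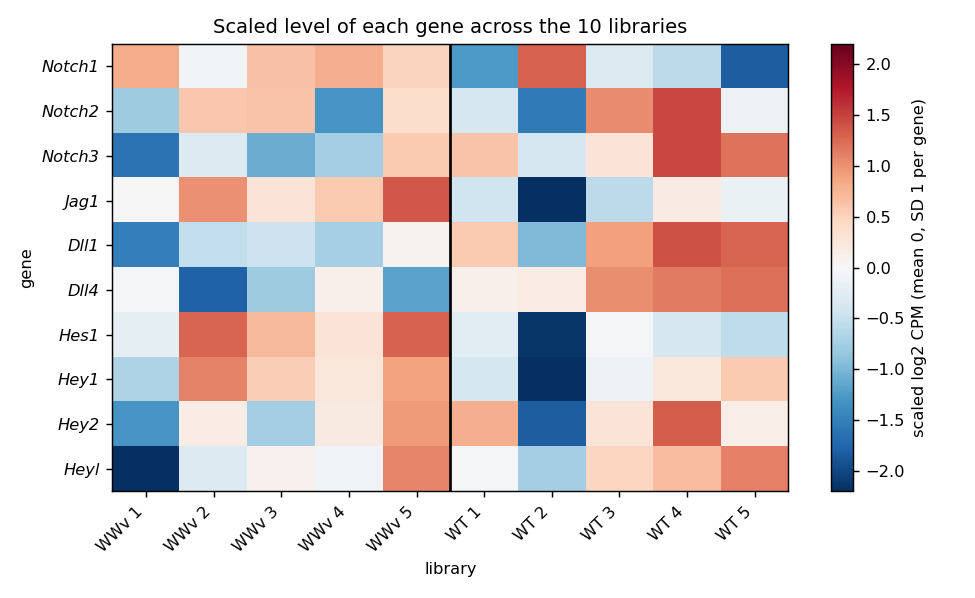
Log2 CPM of each gene in each library, scaled to mean 0 and SD 1 over the 10 libraries (colour), with WWv libraries left of the line and WT libraries right of it. WWv 1 and WT 2 are low for most of the 10 genes and high for Notch1, while WWv 5 and WT 4 are high for most.

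The genes whose profile over the 10 libraries was most like that of the leading receptor, ligand and target were sought among 11892 other coding genes with a mean of at least 1 CPM. The measure was the root mean square difference between scaled log2 CPM values, for which 0 means the same profile. Closest to Jag1 were Clip1, a microtubule plus-end protein (0.183), Col4a3, a basement membrane collagen chain (0.227), Aplp1, a relative of the amyloid precursor protein (0.23), and Igf1, the insulin-like growth factor (0.249), against a median of 1.33 over all genes compared. Among the genes closest to Hes1 were Mef2d, a myocyte enhancer factor (0.277), and Arfip1 (0.295), with a median of 1.32. Notch2, which varied little, had no neighbour closer than Ipo13, an importin (0.439). These are descriptions over 10 libraries.

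Beyond the 10 genes, 7 lists of other pathway genes held 79 different tested genes, of which 12 were higher in WWv, 11 were lower and 56 did not pass the threshold. That is 29.1% called, against a background of 28.2%, and the median log2 fold change was −0.01, as over all tested genes. Groups did not overlap for 16 of the 79, against a background of 15.9% of genes. The counts moved with single libraries: higher genes numbered 6 without WWv 2 or WWv 3 and 7 without WT 3, and lower genes numbered 7 without WWv 2, WWv 3, WT 4 or WT 5. In these 5 fits 19.5 to 21.5% of all tested genes were called. Without WT 2 there were 17 higher and 21 lower genes in the lists, against 46.2% of all genes called. With library size only 5 were higher and 19 lower, against 30.2% of all genes called. In the next paragraphs the named genes are those with the largest changes past the threshold in each list.

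**Figure D5:**
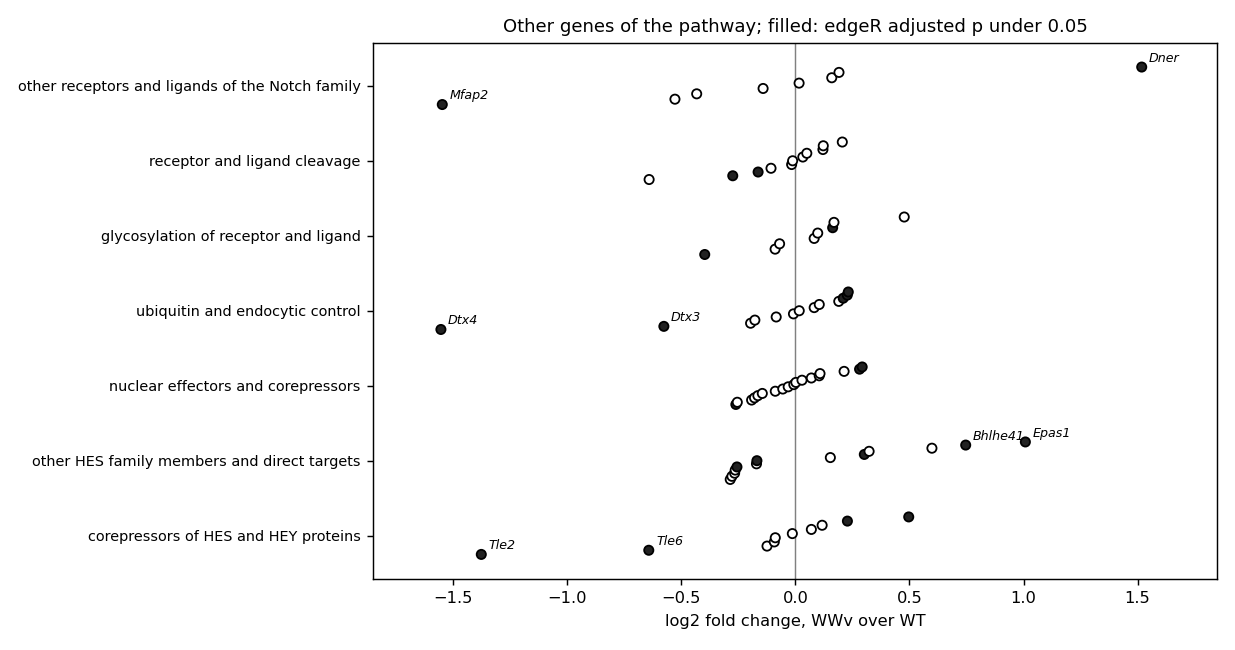
Log2 fold change of WWv over WT for each tested gene of the 7 lists (1 point per gene, rows are lists); filled points have an edgeR adjusted p under 0.05 and names mark filled points beyond 0.5 in size. Most points lie near 0, with Mfap2, Dtx4 and Tle2 furthest to the left.

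Of 8 tested genes for other receptors, ligands and related proteins outside the 10 genes, 1 was higher, 1 lower and 6 not past the threshold. Mfap2, a microfibril protein whose family can bind Notch ligands, averaged 3.83 ± 0.401 CPM in WWv and 11.2 ± 2.41 CPM in WT (n = 5 each), and its groups did not overlap. It was 2.92-fold lower (log2 fold change −1.55 ± 0.15, edgeR adjusted p = 0.00025). Dner, a Delta-like membrane protein best known from neurons, averaged 1.67 ± 0.700 CPM in WWv and 0.582 ± 0.332 CPM in WT (log2 fold change 1.52, adjusted p = 0.0353). Its call was lost without WWv 2 (adjusted p = 0.0864), WWv 3 (0.0665), WWv 4 (0.088), WT 3 (0.0775), WT 4 (0.0724) or WT 5 (0.051). Notch4, the endothelial receptor, stood at 11.2 to 21.3 CPM in WWv and 11.8 to 17.5 CPM in WT (0.19 ± 0.17, adjusted p = 0.41).

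Of 11 genes for cleavage of receptor and ligand 2 were lower and 9 did not pass (18.2% called, background 28.2%). Adam17, a protease of the ADAM family that can shed Notch, averaged 56.9 ± 1.68 CPM in WWv and 68.9 ± 4.23 CPM in WT, with no overlap (log2 fold change −0.27 ± 0.05, edgeR adjusted p = 0.0032). Psenen, a gamma-secretase subunit, had a change of −0.16 (adjusted p = 0.0485). That call was lost when any library except WT 2 was left out, with adjusted p from 0.0583 without WWv 2 to 0.114 without WT 5. The presenilin genes, nicastrin and Adam10 did not pass.

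Of 8 genes for glycosylation 1 was higher and 1 lower. Rfng, a Fringe glycosyltransferase that tunes which ligands a receptor answers, averaged 18.8 ± 1.23 CPM in WWv and 24.8 ± 2.39 CPM in WT, with no overlap (log2 fold change −0.40 ± 0.08, edgeR adjusted p = 0.0041). Pofut1, which adds the first fucose, had a change of 0.16 (adjusted p = 0.0357). Its call was lost in 13 of 19 alternatives, among them library size only (0.078, adjusted p = 0.34) and every library left out except WT 2 and WWv 5, with adjusted p from 0.0659 without WWv 2 to 0.102 without WWv 3.

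Of 13 genes for ubiquitin and endocytic control 3 were higher, 2 lower and 8 not past the threshold (38.5% called, background 28.2%). Dtx4, a Deltex ubiquitin ligase that acts on the receptor, stood at 10.3, 8.34, 10.9, 10.7 and 10.7 CPM in WWv replicates 1 to 5, against 30.4, 13.99, 29.7, 37.1 and 38.6 CPM in WT. All WWv libraries were below all WT libraries, and WT 2 was the nearest to them. Dtx4 was 2.94-fold lower (log2 fold change −1.55 ± 0.23, edgeR adjusted p = 0.0012), a call kept in all 19 alternatives, and −1.73 without WT 2. Dtx3, another Deltex gene, averaged 39.9 ± 4.67 CPM in WWv and 59.5 ± 13.2 CPM in WT (−0.58, adjusted p = 0.0167). Mib1, the ligase that lets ligands be endocytosed (0.23, adjusted p = 0.0171), and Fbxw7, which marks the freed Notch domain for decay (0.23, adjusted p = 0.0149), were higher with TMM and not past the threshold with library size only (0.14 for each). The call of Mib1 was also lost without WWv 2 (adjusted p = 0.0531), WWv 3 (0.0582) or WWv 5 (0.0549).

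Of 18 nuclear effectors and corepressors 2 were higher and 1 lower (16.7% called, background 28.2%). Rbpj, the DNA-binding partner of all Notch receptors, did not pass the threshold (157 CPM in WWv, 179 CPM in WT, log2 fold change −0.19, edgeR adjusted p = 0.142). Fhl1, a muscle LIM protein with a splice form that binds RBPJ, had a change of 0.28 (adjusted p = 0.0288), which gene counts cannot assign to a form. Its call was lost in 6 of 19 alternatives, among them library size only (0.20, adjusted p = 0.0707) and the fits without WWv 2 (0.0562), WWv 3 (0.0519), WWv 5 (0.0597) or WT 3 (0.0716). Maml3, a Mastermind coactivator, had −0.26 (adjusted p = 0.0398), lost in 10 of 19 alternatives, among them no low-count filter (0.0997), without WT 2 and WWv 1 together (0.0628) and without WWv 1 (0.0698), WWv 2 (0.101), WWv 3 (0.0644), WWv 4 (0.0917), WT 3 (0.0854), WT 4 (0.0694) or WT 5 (0.0863).

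Of 13 tested genes among other HES relatives and reported targets 3 were higher, 2 lower and 8 not past the threshold. Called genes made up 38.5% of them, against 28.2% of all tested genes. Bhlhe41, a circadian repressor related to the HES proteins, stood at 20.5, 20.5, 19.3, 19.8 and 19.4 CPM in WWv replicates 1 to 5, against 10.9, 13.1, 13.3, 10.9 and 11.1 CPM in WT. The groups were far apart for their spread (log2 fold change 0.75 ± 0.07, edgeR adjusted p = 0.00023), with the call kept in all 19 alternatives, although 1280 of its 6720 exon bases overlap a gene on the opposite strand. Epas1, the hypoxia factor HIF-2alpha, averaged 86.0 ± 11.5 CPM in WWv and 42.8 ± 22.8 CPM in WT (1.01, adjusted p = 0.018), with WT 2 at 83.6 CPM and the other WT libraries at 31.2 to 34.6 CPM. Without WT 2 the change was 1.40. Cdkn1a, the cyclin-dependent kinase inhibitor p21, had 0.30 (adjusted p = 0.0101, and 0.0592 with library size only), and Snai1, a repressor of epithelial genes, −0.26 (adjusted p = 0.0123). Hes5, the neural HES gene, had 0 counts in every library, where the limit of 3 counts stands at 0.0571 to 0.0721 CPM. Hes2, Hes3, Hes7 and Helt did not pass the low-count filter.

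Of 10 tested corepressors of HES and HEY proteins 2 were higher, 2 lower and 6 not past the threshold (40.0% called, background 28.2%). Tle2, a Groucho family corepressor, stood at 21.1, 16.1, 16.5, 17.7 and 25.8 CPM in WWv, against 52.2, 23.1, 43.7, 75.7 and 57.8 CPM in WT. WWv 5 lay above WT 2, and the other libraries did not overlap (2.60-fold lower, log2 fold change −1.38 ± 0.26, edgeR adjusted p = 0.0043), and without WT 2 the change was −1.56. Tle3 was higher with no overlap (0.23, adjusted p = 0.0066). Tle6 had −0.64 (adjusted p = 0.023), lost without WWv 2 (0.0525), WWv 3 (0.0553), WT 4 (0.0549) or WT 5 (0.0528). Tle4 had 0.50 (adjusted p = 0.0465), lost in 12 of 19 alternatives, which included each library left out except WWv 5 and WT 2 (adjusted p from 0.076 to 0.106).

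Markers of other cell types were counted in the same fit. Fibroblast markers had 1 of 8 higher and 4 lower (62.5% called, against 28.2% of all genes), with a median log2 fold change of −0.69. Their summed level, which is weighted to the most abundant markers, was 1160 to 1496 CPM in WWv and 1039 to 1607 CPM in WT. Pericyte markers, a list that holds Notch3 itself, had 1 of 7 higher and 2 lower (42.9% called), with a median log2 fold change of −0.83. Their sum was 1054 to 1296 CPM in WWv and 734 to 1313 CPM in WT, with Higd1b at 0 in every library. Macrophage markers (0 of 5 tested past the threshold, 20.2 to 25.1 CPM in WWv and 19.7 to 40.8 CPM in WT) and glial markers (0 of 6, 6.30 to 13.1 CPM in WWv and 7.01 to 10.9 CPM in WT) were low. The macrophage markers Adgre1, C1qa and C1qb did not pass the low-count filter and were not tested. They averaged 0.0096, 0.021 and 0.037 CPM in WWv, against 0.235, 0.206 and 0.250 CPM in WT. The part of all these cell types in the levels of the Notch genes was not tested.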

How the data were processed

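The authors deposited raw counts per gene, which are whole numbers for 54446 Ensembl gene IDs with version, in 10 libraries. Per the submitters' processing notes, bcl2fastq 2.17, Trim Galore 0.4.3, STAR 2.5.2a and mm10 were used, and per the labels' protocols a Nugen mRNA kit was used for the libraries. How reads were counted, with which strand setting and annotation, is not given in the sources used here. Symbols, positions and merged exon lengths came from GENCODE M21 (GRCm38), where 54409 IDs matched without version. A symbol with several IDs went to the ID with the most counts.

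The quasi-likelihood test of edgeR (version 4.0.16, under R 4.3.3) compared WWv with WT, with group as the only term, TMM and filterByExpr at a minimum count of 10. SE was the absolute log2 fold change over the square root of F. Principal components and scaled profiles used log2 CPM with a prior count of 2. Alternatives used RLE, upper quartile or library size scaling, other filters, limma-voom (limma 3.58.1), DESeq2 1.42.0, a replicate block and libraries left out. The procedure was tested on simulated data. Totals of 42040255 to 53863661 counts limit genes with few counts, and floors cover counting error only.

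The 10 genes and the lists were chosen with earlier results of these data known. The naming rule took the 10 genes, Kit, up to 4 genes with the largest change past the threshold per list (with none past it, the smallest p), and 4 genes most like the leading receptor, ligand and target. Some genes that the rule names are not reported here. Further genes named for their roles or as markers (Notch4, Rbpj, Adam10, the presenilins, nicastrin, Ptprb, Erg, Cdc6, Ccne1, Ccne2, Higd1b, Adgre1, C1qa, C1qb, Hes2, Hes3, Hes7, Helt, Hes5) were chosen after their values were seen.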

Additional observations from a re-analysis of the deposited data

Results flagged for a closer look

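In 20 groups of 5 libraries (the 10 genes in each genotype) 1 library stood apart from the rest of its group by the gap to its nearest neighbour: Hes1 in WT 2, at 28.1 CPM, against 33.9 to 36.1 CPM in the other WT libraries. The gap was 0.729 of the group's range, where 0.71 is the limit for 5 libraries. Chance marks about 1 in 20 such groups.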

How the results depend on the processing

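All 19 alternatives kept the sign for 9 of the 10 genes, and Notch2 ran from −0.064 to 0.016 when single libraries were left out (positive without WWv 4, 0.0041, WT 3, 0.0038, and WT 4, 0.016). Dll1 and Dll4 were not tested at 1 CPM in 5 libraries. Log2 fold changes that crossed the threshold follow. Notch3 passed with upper quartile (−0.67), library size only (−0.73), no low-count filter (−0.65), 1 CPM in 5 libraries (−0.68), DESeq2 (−0.64), limma-voom (−0.66), without WT 2 and WWv 1 together (−0.66). Notch1 passed without that pair (0.41). Jag1 did not pass with upper quartile (0.42), library size only (0.36) or 1 CPM in 5 libraries (0.42), and Hes1 not with these (0.21, 0.15, 0.21) or with no low-count filter (0.23). Dll1 did not pass with limma-voom (−2.49).

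Single libraries left out gave 0.19 to 0.44 for Notch1, −0.85 to −0.54 for Notch3, 0.32 to 0.51 for Jag1, −1.30 to −0.94 for Dll4 and 0.17 to 0.27 for Hes1. Higher calls among the 10 genes then numbered 0 to 3 and lower calls 1 to 3. In the lists they numbered 6 to 17 and 7 to 21, and over all genes 1286 to 3507 and 1721 to 3620. Among the 10 genes higher calls were 0 with upper quartile, library size only or 1 CPM in 5 libraries and 1 with no low-count filter, and lower calls 1 at 1 CPM in 5 libraries. With library size only the lists had 5 higher and 19 lower and all genes 983 and 3599, and without WT 2 and WWv 1 together 20 and 17, and 3361 and 3750.

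Same-numbered libraries did not all deviate together (r from −0.092 to 0.308). No WWv library correlated best with the WT library of its own number, so the numbers were not taken to pair mice. With the replicate block Notch3 passed (−0.67, adjusted p = 0.0383), Jag1 (0.46, adjusted p = 0.0621) and Hes1 (0.23, adjusted p = 0.0975) did not, and higher calls among the 10 genes were 0. The block also ended the calls of Psenen (adjusted p = 0.109), Pofut1 (0.0699), Fhl1 (0.0501) and Maml3 (0.0724). Depth limits Dll1, Dll4, Hey1 and Heyl, with 2 to 183 counts per library. The cause of these changes was not tested.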
